A study of Mus musculus with 4 samples.

Results

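The centromere and kinetochore genes described here are a list of 39 genes that encode centromeric chromatin proteins, inner and outer kinetochore subunits, spindle checkpoint proteins and the chromosomal passenger complex. They were taken by symbol from a table of 54842 genes, and every one of the 39 was found and passed the filter on low counts that left 25085 genes for testing. The table comes from RNA-seq of mouse embryonic fibroblasts (MEF cells) that were wt or Top2β-null, with 2 libraries of each genotype from untreated cells in serum-containing medium. Top2β-null MEF cells lack DNA topoisomerase 2β, an enzyme that passes one DNA duplex through another to resolve tangles and supercoils. The methods of the study cite separate origins for the cells of each genotype, so that origin of the cells and genotype cannot be told apart. The sources used here do not say whether the 2 libraries of a genotype come from separate cultures, and the p-values measure only the spread between these libraries.

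The centromere is marked by nucleosomes that hold the histone H3 variant CENP-A. On this chromatin sits the constitutive centromere-associated network (CCAN), which in turn holds the KMN network, the part of the kinetochore that grips spindle microtubules. Checkpoint kinases and the MAD and BUB proteins delay anaphase until every kinetochore is attached, and the chromosomal passenger complex, with the kinase Aurora B, releases faulty attachments. Many of these genes are transcribed mainly in G2 and M phase of dividing cells, under CCAAT boxes, CHR elements and the activators FOXM1 and MYBL2.

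Counts per library summed to 142460700 and 149647278 in wt MEF cells and to 133116830 and 138182262 in Top2β-null MEF cells. Top2b, the targeted gene, was at 18260 and 18470 normalized counts in wt MEF cells and at 3879 and 3789 in Top2β-null MEF cells (log2 fold change -2.26, SE 0.0271, adjusted p = 6.6e-19). Here and below, adjusted p-values are those of the quasi-likelihood test of edgeR, corrected over all features tested by the method of Benjamini and Hochberg. Log2 fold changes are Top2β-null over wt, and SE is their standard error. Of 14 fibroblast markers, 14 passed the filter, of which 6 were higher and 6 lower in Top2β-null MEF cells. Their summed level was 1532200 and 1558300 normalized counts in wt and 1117100 and 1124300 in Top2β-null MEF cells. Summed markers of other cell types differed between the genotypes as well. Leukocyte markers summed to 3196 and 3268 normalized counts in wt and to 2080 and 2104 in Top2β-null MEF cells. Cd68 alone had 1641 and 1688 of these in wt and 302 and 289 in Top2β-null MEF cells, and Tyrobp was at 0. Of the 5 leukocyte markers tested, Cd68 was the 1 called lower, 3 were higher and 1 was not called. Itgam rose most (log2 fold change 4.68, adjusted p = 4.7e-06), to a mean of 28.3 normalized counts in Top2β-null MEF cells. Skeletal muscle markers summed to 368 and 382 and then to 140 and 114, with Myog and Myf5 at 0, endothelial markers to at most 258 and epithelial markers to at most 43.5 in any library. The neural list summed to 46585 and 46044 in wt and to 9007 and 9224 in Top2β-null MEF cells, and Nes alone held 44473 and 43944 of these in wt and 4618 and 4572 in Top2β-null MEF cells. Of the 5 neural markers tested, 1 was higher, 3 were lower and 1 was not called, and the higher one, Tubb3, had a log2 fold change of 1.15 (adjusted p = 5.1e-13). The part of these differences in the results on the 39 genes was not tested.

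The kinetochore genes were expressed at high and almost equal total levels in both genotypes, while single genes shifted in opposite directions. Their counts made up 0.273% of all gene counts in either wt library and 0.289% and 0.287% in the Top2β-null libraries. Normalized counts of the 39 genes summed to 315927 and 318328 in wt and to 312864 and 312720 in Top2β-null MEF cells. In RNA from whole cultures, fewer cells in mitosis and less RNA per cell cannot be told apart. At an adjusted p below 0.05, 20 of the 39 genes (51.3%) had more counts and 18 (46.2%) had fewer in Top2β-null MEF cells. By the same rule 32.8% of all genes tested were higher and 33.7% lower. Because the 39 genes are abundant, the same shares were also taken over the 9902 genes at or above the level of the lowest of them, a comparison chosen after the data had been seen, and there 38.9% were higher and 46.0% lower. These 9902 are called abundant genes below, and the counts for each role and list are to be read against both pairs of shares. The libraries of the genotypes did not overlap for any of the 39 genes, and this held for 81.9% of all genes tested and for 92.7% of those at or above the same level.

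The shifts were small. The median log2 fold change of the 39 genes was 0.085, against -0.0058 for all genes tested and -0.038 for genes at or above the same level. The median absolute log2 fold change was 0.29, against 0.42 and 0.31, and the largest was 0.81. None of the 39 passed the cut-offs of the methods of the study (adjusted p below 0.05, absolute log2 fold change above 1, mean normalized count above 100), by which 5.52% of all genes tested were higher and 5.25% lower. At or above the same level these shares were 5.38% and 6.27%. With a 1.5-fold cut-off in place of log2 1, Aurkb, Mad1l1 and Nuf2 were higher (3 of 39, or 7.69%), against 9.79% of all genes tested and 11.2% at or above the same level. Hjurp, Cenpb and Cenpp were lower (3 of 39, or 7.69%), against 11.1% and 15.5%. The libraries of a genotype lay a median of 1.02-fold apart for the 39 genes and at most 1.12-fold, for Pmf1 in Top2β-null MEF cells. These directions are relative to the median gene: scaling to Hprt, which was itself lower (log2 fold change -0.37), raised the median of all genes to 0.363, and 10 of the 18 lower genes then had a positive value. Of the calls among the 39 genes, 52.6% were increases with TMM and 87.9% with Hprt, against 49.3% and 76.4% of the calls among all genes tested.

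**Figure D1:**
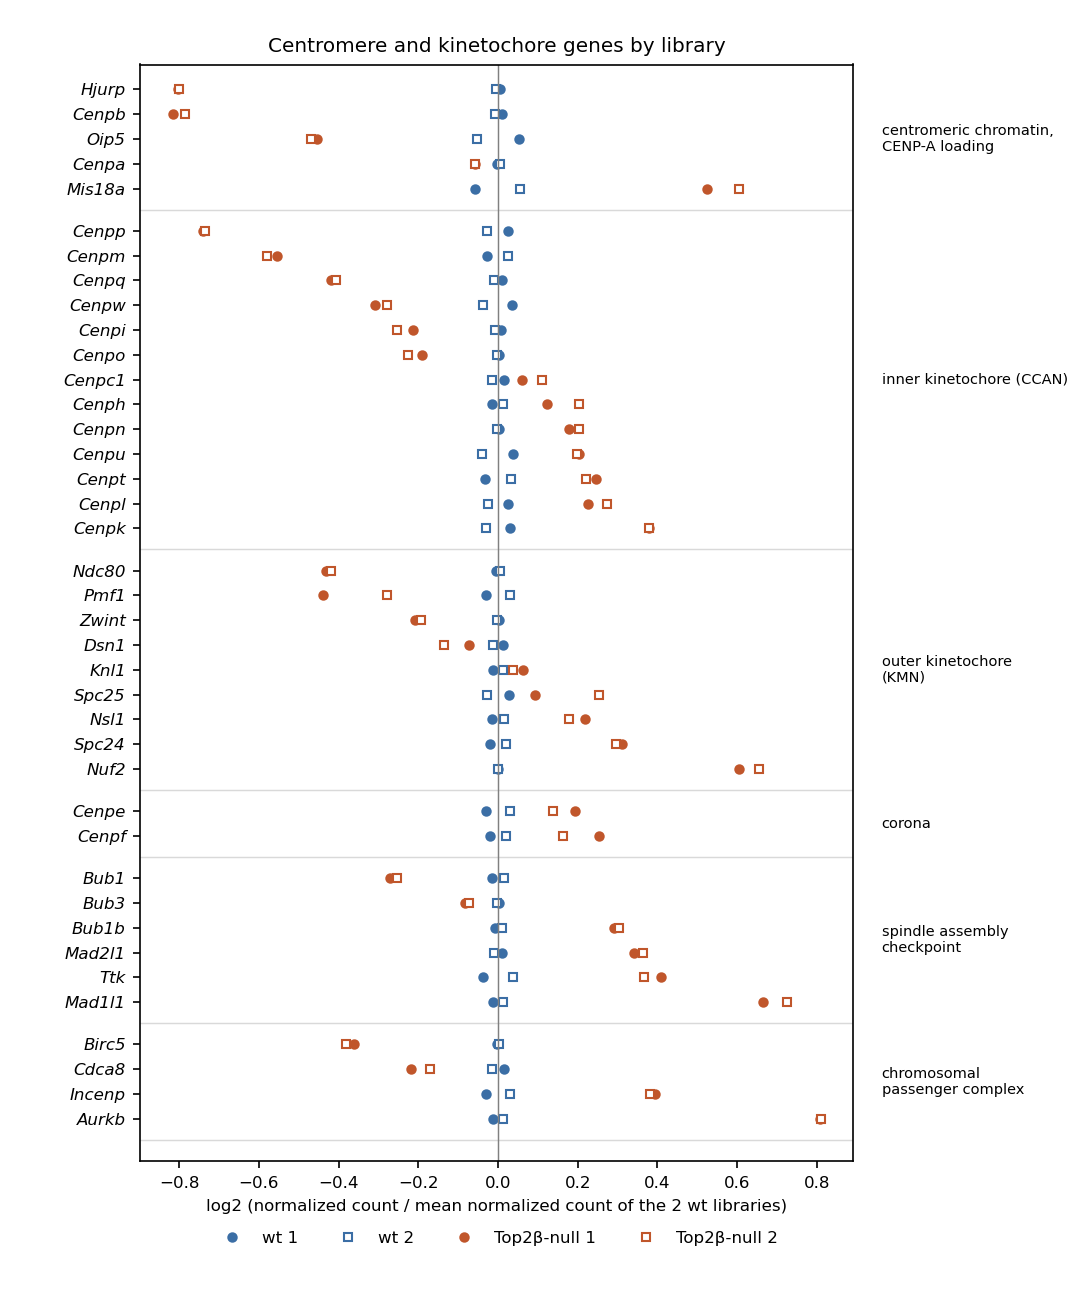
Log2 ratio of each library's normalized count to the mean of the 2 wt libraries (x axis) for the 39 genes (y axis), ordered by role and, within a role, by fold change. Circles are replicate 1 and squares replicate 2, wt in blue and Top2β-null in orange. Each role except the corona holds genes on both sides of 0, from about -0.80 (Hjurp, Cenpb) to 0.81 (Aurkb).

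At the base of the kinetochore stand 5 genes for the chromatin of the centromere and its renewal, of which 4 were lower and 1 was higher, with a median log2 fold change of -0.46. By the same rule 33.7% of all genes tested and 46.0% of those at or above the same level were lower, and 1 of the 4, Cenpa, was called at an adjusted p of 0.049, and none of the alternative fits called it lower. Hjurp (chr1:88262471-88277633), the chaperone that deposits CENP-A, had 37540 and 37300 normalized counts in wt and 21470 and 21500 in Top2β-null MEF cells. Its log2 fold change was -0.80 (SE 0.0246, adjusted p = 6.4e-14). Cenpb (chr2:131175182-131180067), which binds a short DNA box in satellite repeats, had 13010 and 12860 normalized counts in wt and 7346 and 7508 in Top2β-null MEF cells. Its log2 fold change was also -0.80 (SE 0.0257, adjusted p = 1.1e-13), and for both genes the Top2β-null libraries lay far below the wt libraries. The phosphatase gene Cdc25b of the G2/M list lies close to Cenpb (chr2:131186949-131198497) and went the other way, with a log2 fold change of 0.42 (adjusted p = 9.6e-10).

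Cenpa itself (chr5:30666777-30674830) hardly differed. It had 13690 and 13760 normalized counts in wt and 13190 in each Top2β-null library, a log2 fold change of -0.057 (SE 0.0242, adjusted p = 0.049). This call was lost with DESeq2 and with each library left out, and with scaling to the total count the value was 0.013. The log2 ratio of Cenpa to Hjurp counts, which needs no scaling between libraries, was -1.46 and -1.44 in wt and -0.70 in either Top2β-null library, so that CENP-A transcripts gained 1.67-fold on those of their chaperone.

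The MIS18 complex licenses centromeres for CENP-A deposition, and its subunits moved apart. Mis18a (chr16:90719312-90727404) had 1475 and 1596 normalized counts in wt and 2206 and 2335 in Top2β-null MEF cells (log2 fold change 0.56, SE 0.0517, adjusted p = 7.4e-08). Oip5 (chr2:119609512-119618469), which encodes MIS18β, had 1444 and 1342 in wt and 1017 and 1007 in Top2β-null MEF cells (log2 fold change -0.46, SE 0.0557, adjusted p = 2.1e-06). Per kb of all annotated exons, wt means were 536 for Mis18a and 783 for Oip5, and this order was inverted in Top2β-null MEF cells, at 793 and 569. The inversion rests on the lengths used, since in normalized counts Mis18a was the higher in both genotypes. Of the exons of Oip5, 9.67% overlap Nusap1 on the other strand (log2 fold change -0.30). The libraries were made with a stranded kit, but the strand setting of the counting is not given in the sources used here, and reads of overlapping genes on opposite strands may not have been told apart.

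Among satellite repeats, the major satellite family GSAT_MM, which lies beside the centromere, had a log2 fold change of 0.65 (adjusted p = 4.9e-11). The satellite family SYNREP_MM, whose place in the chromosome is not given in the sources used here, had 1258 and 1197 normalized counts in wt and 238 and 294 in Top2β-null MEF cells, a log2 fold change of -2.20 (adjusted p = 8.0e-13).

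Of the 13 CCAN genes, 7 were higher and 6 lower (38.9% and 46.0% of abundant genes), with a median log2 fold change of 0.085, and the larger shifts were decreases. This median was 0.0558 without wt replicate 2, 0.15 without Top2β-null replicate 1 and 0.155 with scaling to the total count. Cenpp (chr13:49464023-49652785), a subunit of the CENP-OPQUR module, had 1233 and 1188 normalized counts in wt and 725 and 727 in Top2β-null MEF cells. Its log2 fold change was -0.74 (SE 0.0570, adjusted p = 8.9e-09), with the Top2β-null libraries well below both wt libraries. Cenpm (chr15:82233779-82244748), of the CENP-HIKM module, had 2290 and 2375 in wt and 1588 and 1560 in Top2β-null MEF cells (log2 fold change -0.57, SE 0.0459, adjusted p = 1.6e-08). Cenpq, Cenpw, Cenpi and Cenpo were lower by less, with log2 fold changes of -0.41, -0.29, -0.23 and -0.21.

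On the other side, Cenpk (chr13:104228611-104252392), a partner of Cenpm in CENP-HIKM, had 1595 and 1529 normalized counts in wt and 2030 and 2031 in Top2β-null MEF cells. This was the largest increase in the CCAN, with a log2 fold change of 0.38 (SE 0.0469, adjusted p = 2.7e-06). Cenph, Cenpn, Cenpu, Cenpt and Cenpl were higher with log2 fold changes from 0.16 to 0.25. Cenpc1 (chr5:86012024-86065583), which bridges CENP-A nucleosomes and the outer kinetochore, moved least. It had 5676 and 5560 normalized counts in wt and 5853 and 6065 in Top2β-null MEF cells (log2 fold change 0.085, SE 0.0298, adjusted p = 0.020), and DESeq2 gave it an adjusted p of 0.074. Cenpu, Cenpo and Cenpp share 26.7%, 19.0% and 12.3% of their exons with Primpol, Adcy3 and Ippk on the other strand. Adcy3 rose with a log2 fold change of 1.47 (adjusted p = 7.5e-13), against the direction of Cenpo, while Ptrhd1, which overlaps 3.47% of its exons, was lower as Cenpo was (-0.56, adjusted p = 1.1e-06). Primpol (0.19, adjusted p = 0.0037) moved as Cenpu did (0.20), and Ippk (-0.24, adjusted p = 2.8e-05) fell as Cenpp did, from a mean of 3658 to 3090 normalized counts. Smaller overlaps on the other strand include those of Cenpk with Ppwd1 (4.45% of its exons) and of Cenpq with Mut (3.65%). Ppwd1 was lower (-0.31, adjusted p = 1.5e-06), against the direction of Cenpk, and Mut was lower as Cenpq was (-0.56, adjusted p = 4.1e-09). The counts of all these CCAN genes are uncertain to the extent that reads of the partners entered them, which was not tested.

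In the outer kinetochore, 4 of 9 KMN genes were higher, 4 lower and 1 was not called (38.9% of abundant genes were higher and 46.0% lower), with a median log2 fold change of 0.051. This median was 0.0239 without wt replicate 1, 0.0765 and 0.0824 without Top2β-null replicates 1 and 2, and 0.12 with scaling to the total count. The genes of the 9 that lay farthest apart belong to 1 complex, NDC80, the microtubule binder. Nuf2 (chr1:169497934-169531464) had 5751 and 5754 normalized counts in wt and 8750 and 9058 in Top2β-null MEF cells (log2 fold change 0.63, SE 0.0275, adjusted p = 6.0e-12). Ndc80 (chr17:71496100-71526857), which pairs with Nuf2 in 1 coiled coil, had 6707 and 6755 in wt and 4993 and 5031 in Top2β-null MEF cells (log2 fold change -0.43, SE 0.0278, adjusted p = 1.1e-09). The partners thus changed places, Ndc80 being the more abundant in both wt libraries and Nuf2 in both Top2β-null libraries. Per kb of exon the wt means were 907 for Nuf2 and 1040 for Ndc80, and the Top2β-null means were 1400 and 772. The remaining subunits, Spc24 and Spc25, were higher with log2 fold changes of 0.30 and 0.18.

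Knl1 (chr2:119047119-119105501), the scaffold to which checkpoint proteins bind, was the single gene not called. It had 15430 and 15690 normalized counts in wt and 16260 and 15970 in Top2β-null MEF cells (log2 fold change 0.051, SE 0.0248, adjusted p = 0.087). Other fits differed on Knl1. It was called higher with TMM factors from genes only (0.063, adjusted p = 0.035) and with scaling to the total count (0.12, adjusted p = 0.00047). DESeq2 did not call it (adjusted p = 0.13). Its partner Zwint was lower (log2 fold change -0.20). Of the MIS12 complex, which joins KMN to the CCAN, Pmf1 and Dsn1 were lower (-0.36 and -0.10) and Nsl1 was higher (0.20). The call of Dsn1 was lost with DESeq2 (adjusted p = 0.091) and with scaling to the total count (-0.035, adjusted p = 0.42). Mis12, the subunit after which the complex is named, was not in the list of 39 but moved more than any gene in it. It had 16620 and 17030 normalized counts in wt and 5855 and 6075 in Top2β-null MEF cells, a log2 fold change of -1.50 (SE 0.0277, adjusted p = 1.2e-16). Mis12 shares 7.69% of its exons with Derl2 on the other strand, and Derl2 was lower as well, with a log2 fold change of -1.29 (adjusted p = 7.6e-15).

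The corona genes Cenpe and Cenpf encode large proteins that capture microtubules before firm attachment, and both rose a little. Cenpe (chr3:135212537-135273611) had 18460 and 19260 normalized counts in wt and 21570 and 20760 in Top2β-null MEF cells, a log2 fold change of 0.17 (SE 0.0282, adjusted p = 7.7e-05). Cenpf (chr1:189640606-189688086) had 20700 and 21290 in wt and 25020 and 23510 in Top2β-null MEF cells, a log2 fold change of 0.21 (SE 0.0301, adjusted p = 1.4e-05).

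Among the 6 checkpoint genes, 4 were higher and 2 lower (38.9% and 46.0% of abundant genes), with a median log2 fold change of 0.33. Mad1l1 (chr5:140008689-140321552), which recruits MAD2 to unattached kinetochores, had 5115 and 5201 normalized counts in wt and 8179 and 8518 in Top2β-null MEF cells. Its log2 fold change was 0.69 (SE 0.0291, adjusted p = 3.5e-12). Ttk (chr9:83834689-83872389), the kinase MPS1 that starts the checkpoint signal, had 5508 and 5804 in wt and 7507 and 7290 in Top2β-null MEF cells (log2 fold change 0.39, SE 0.0310, adjusted p = 1.4e-08). Mad2l1, which encodes MAD2, was higher as well (log2 fold change 0.35), so that the MAD1 and MAD2 genes and their upstream kinase all rose.

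The BUB genes did not move as one. Bub1b (chr2:118598211-118641591), which encodes BUBR1 of the mitotic checkpoint complex, had 12600 and 12750 normalized counts in wt and 15510 and 15640 in Top2β-null MEF cells (log2 fold change 0.30, SE 0.0244, adjusted p = 1.9e-08). Its paralog Bub1 was lower (log2 fold change -0.26, adjusted p = 1.3e-07). Bub3 (chr7:131560222-131571895), the shared partner of both, had 13400 and 13340 in wt and 12630 and 12710 in Top2β-null MEF cells (log2 fold change -0.077, SE 0.0243, adjusted p = 0.011), a call that DESeq2 did not make (adjusted p = 0.081). Bub1b, Knl1 and Oip5 lie near each other on chromosome 2, and their log2 fold changes were 0.30, 0.051 and -0.46.

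In the chromosomal passenger complex, 2 of 4 genes were higher, the kinase and the scaffold, and 2 lower, the targeting subunits (38.9% and 46.0% of abundant genes). Aurkb (chr11:69045647-69051664), which encodes the kinase Aurora B, had 5476 and 5574 normalized counts in wt and 9663 and 9684 in Top2β-null MEF cells. This was the largest increase among the 39 genes, with a log2 fold change of 0.81 (SE 0.0261, adjusted p = 1.3e-13). Incenp (chr19:9872296-9899551), the scaffold that also activates the kinase, had 17440 and 18180 in wt and 23400 and 23190 in Top2β-null MEF cells (log2 fold change 0.39, SE 0.0264, adjusted p = 1.9e-09). Birc5 (chr11:117849251-117855743), which encodes survivin, had 12590 and 12650 in wt and 9825 and 9689 in Top2β-null MEF cells (log2 fold change -0.37, SE 0.0248, adjusted p = 1.4e-09). Cdca8 (chr4:124918465-124939311), which encodes borealin, had 10370 and 10150 in wt and 8817 and 9121 in Top2β-null MEF cells (log2 fold change -0.19, SE 0.0269, adjusted p = 9.5e-06). The log2 ratio of Aurkb to Birc5 counts was -1.20 and -1.18 in wt and -0.024 and -0.00074 in Top2β-null MEF cells, which brought the pair to equal counts.

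**Figure D2:**
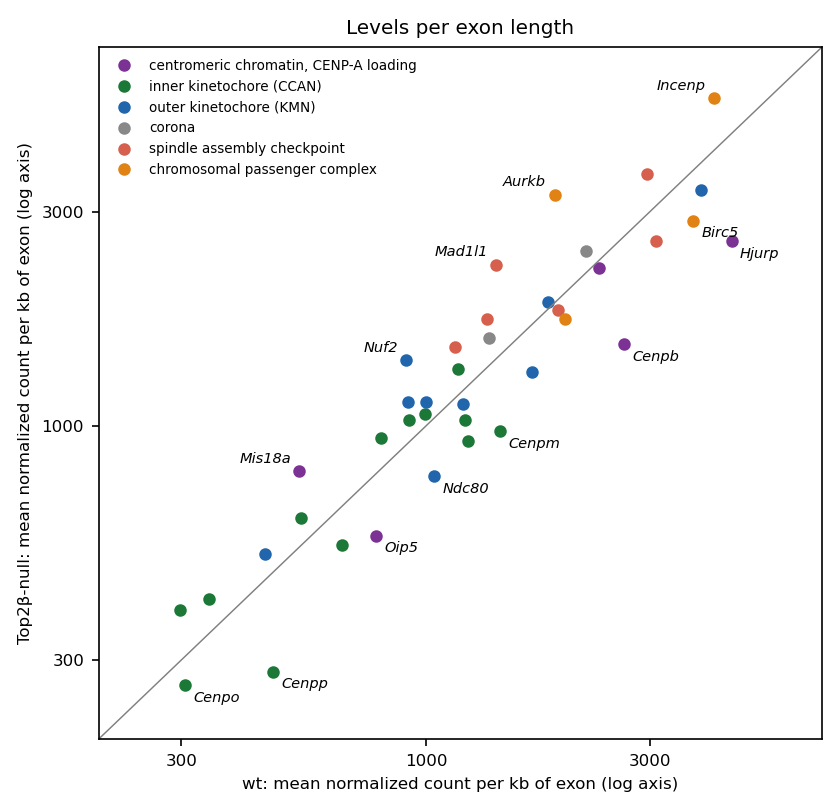
Mean normalized count per kb of exon in wt (x axis) and Top2β-null MEF cells (y axis), both on log axes, for the 39 genes coloured by role, each point the mean of 2 libraries. The line marks equal levels. Incenp (4110 and 5380) and Aurkb (1880 and 3280) lie above it, and Hjurp (4490 and 2580) and Cenpb (2650 and 1520) below it.

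Levels per kb of exon divide by the length of all annotated exons of a gene together. This length can exceed that of the transcripts expressed, so different genes can be set side by side only roughly. On this scale the 39 genes ranged from 299 (Cenpk) to 4490 (Hjurp) in wt MEF cells and from 264 (Cenpo) to 5380 (Incenp) in Top2β-null MEF cells. Hjurp ranked 1 in wt and shared rank 6 with Bub1 in Top2β-null MEF cells, where Incenp ranked 1. Aurkb went from rank 12 to rank 4, and Cenpb from rank 7 to rank 16. The lowest levels on this scale belonged to the CCAN genes Cenpk, Cenpo, Cenpl and Cenpp in wt MEF cells, apart from Nsl1, which lay between Cenpl and Cenpp.

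Ratios between partners of 1 complex put the divergence on a scale free of library size. For each of 13 complexes or partner groups the gene with the highest fold change was set over the one with the lowest, a choice made after the values had been seen, so that positive differences are built in. Their size is raised by the choice as well, and more so in complexes with more genes, which have from 2 to 5 here. The sizes are therefore given for each pair and not compared between complexes. The log2 ratio of Nsl1 to Mis12 rose by 1.69 (pooled SD of replicates 0.0470), that of Aurkb to Birc5 by 1.18 (0.0152), that of Nuf2 to Ndc80 by 1.06 (0.0200) and that of Mis18a to Oip5 by 1.03 (0.120). The ratio of Cenpk to Cenpm rose by 0.95, that of Cenpu to Cenpp by 0.94, that of Cenpt to Cenpx by 0.88 and that of Bub1b to Bub1 by 0.56. The ratio of Cenpa to Hjurp rose by 0.74, that of Mad1l1 to Mad2l1 by 0.34 and that of Knl1 to Zwint by 0.25. For Cenpl over Cenpn, a CCAN module of 2 genes, the log2 ratio rose by 0.059 (pooled SD 0.0233), and for the corona pair that of Cenpf to Cenpe rose by 0.042 (pooled SD 0.0202). No test is given for these ratios, since the choice of pairs also fixes the separation of the genotypes.

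**Figure D3:**
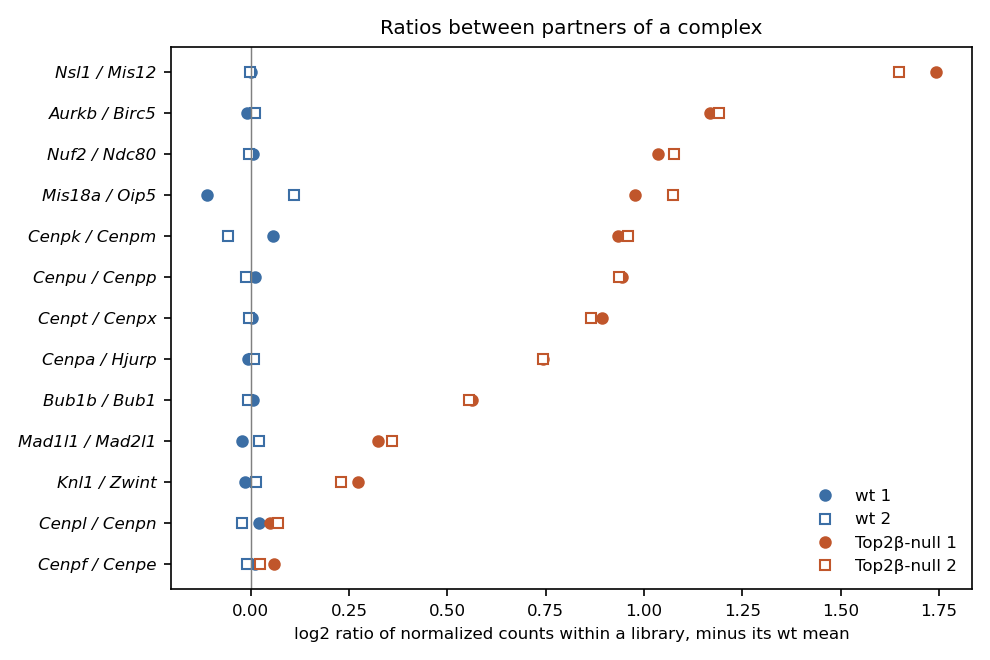
Log2 ratio of normalized counts within each library, minus its mean over the 2 wt libraries (x axis), for the pair of genes with the widest difference in each of 13 complexes or partner groups (y axis). Colours and symbols mark genotype and replicate. The Top2β-null libraries lie near 1.69 for Nsl1 over Mis12 and near 0.04 for Cenpf over Cenpe.

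A further 30 genes of the centromere and kinetochore were written down as a list beside the 39. Of these, 11 were higher, 13 lower and 6 not called, near the shares of abundant genes (38.9% higher and 46.0% lower), with a median log2 fold change of -0.030. Mis12 was the 1 gene past the cut-offs of the study. Clasp1, which stabilizes microtubule ends, was lower (-0.68, adjusted p = 3.7e-12), and Bod1 and Cenpv were higher (0.69, adjusted p = 5.7e-10, and 0.68, adjusted p = 8.1e-08).

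The cell cycle genes outside the kinetochore were compared to see whether the whole programme of dividing cells had shifted. Of 30 G2/M genes, 10 were higher, 18 lower and 2 not called, with a median log2 fold change of -0.17, where 38.9% of abundant genes were higher and 46.0% lower. Racgap1, of the centralspindlin complex of cytokinesis, fell from 46580 and 46930 to 26000 and 25980 normalized counts (-0.85, adjusted p = 3.8e-14). Gtse1 was lower (-0.51, adjusted p = 4.6e-11), and the spindle motor gene Kif11 was higher (0.48, adjusted p = 3.9e-11). Top2a, which encodes the topoisomerase 2 of dividing cells, had 78730 and 80250 normalized counts in wt and 83410 and 83490 in Top2β-null MEF cells (0.070, adjusted p = 0.031). Of 30 G1/S and S phase genes, 14 were higher, 11 lower and 5 not called, with a median of 0.0086. Ccne1 (0.97, adjusted p = 1.4e-12) and Mcm7 (0.53, adjusted p = 1.4e-11) were higher, and Prim1 (-0.63, adjusted p = 4.0e-12) and Uhrf1 (-0.59, adjusted p = 4.3e-12) were lower.

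Summed per library, the 39 genes were set against the other cell cycle genes. The log2 ratio of their sum to that of the G2/M genes was -0.95 and -0.96 in wt and -0.93 in both Top2β-null libraries, a difference of 0.024 (pooled SD 0.00805). Against the G1/S and S phase genes it was -0.45 in each wt library and -0.48 and -0.50 in Top2β-null MEF cells, which makes a difference of -0.033 (pooled SD 0.0085). The G2/M genes over the G1/S and S phase genes, a ratio added after the data had been seen, were at 0.49 and 0.51 in wt and at 0.45 and 0.44 in Top2β-null MEF cells, a shift of -0.057 (pooled SD 0.0124). The genotypes did not overlap in any of the 3 ratios, and the two-sided exact permutation test gave p = 0.33 for each, the smallest p possible. With medians of log2 counts in place of sums, the shifts were 0.0803, 0.0163 and -0.064, so that the first was larger and the second changed sign. Without wt replicate 2 the first was 0.0156.

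**Figure D4:**
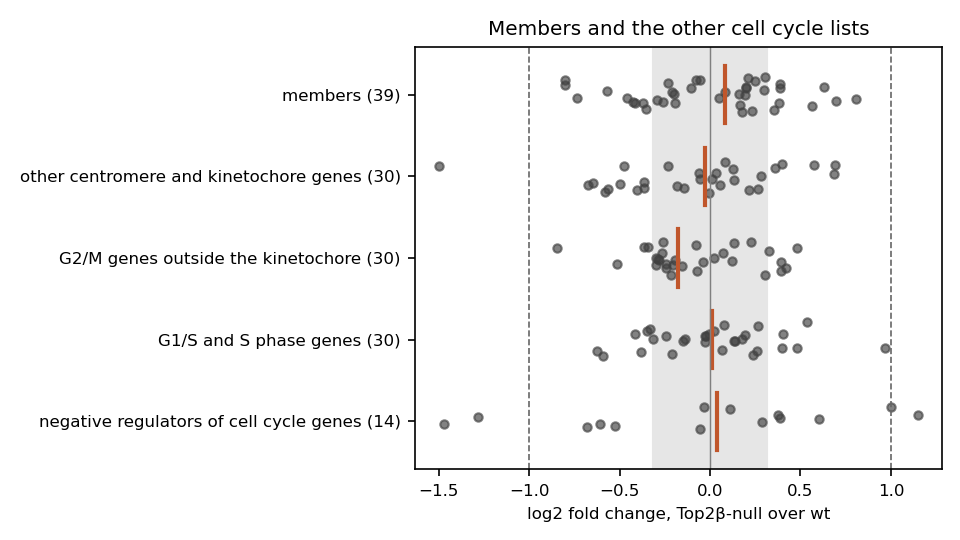
Log2 fold change, Top2β-null over wt (x axis), of the 39 genes (members) and of 4 other lists (y axis, number of genes tested in parentheses), each point 1 gene and each orange bar the median. Grey marks the median absolute log2 fold change of genes at or above the level of the lowest member (0.31 either side of 0), dashed lines the cut-off of 1. The 39 genes stay inside the dashed lines, while Mis12 and 3 negative regulators lie outside them.

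The transcriptional activators of these genes differed from each other. Foxm1 had 18950 and 18630 normalized counts in wt and 29920 and 30200 in Top2β-null MEF cells (log2 fold change 0.68, adjusted p = 5.8e-13), both Top2β-null libraries lying far above the wt libraries. Mybl2 was slightly lower (-0.10, adjusted p = 0.0019). Of 15 listed negative regulators, 14 were tested and Cdkn1c had too few counts. Among them, 7 were higher, 5 lower and 2 not called, and the shifts of some were larger than any among the 39 genes. Cdkn1b, which encodes p27, had a log2 fold change of 1.15 (adjusted p = 4.7e-15) and Cdkn2c, which encodes p18, one of 1.00 (adjusted p = 1.1e-13). Cdkn1a, which encodes p21, and Rb1 were lower, at -1.47 (adjusted p = 3.1e-11) and -1.28 (adjusted p = 7.9e-12).

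Promoters were examined for the elements that are known from G2/M promoters. RefSeq windows from 250 bases before to 50 bases after the start (GRCm38.p6) were matched by symbol for 35 of the 39 genes, in 39 windows, and none was matched for Aurkb, Incenp, Nsl1 and Spc24. On either strand, 53.8% of the windows held the CHR letters TTTGAA or TTTAAA, against 27.6% of all 32851 windows. CCAAT was found in 66.7% (37.4% of all windows). The share with CCAAT was also 66.7% in the G1/S and S phase list, and it was 88.9% in the G2/M list. CCAAT together with CHR was found in 43.6% (10.7% of all windows). This share was 77.8% in the G2/M list and 18.5% in the G1/S and S phase list. E2F letters were searched as TTCCCGC, as the variant TTTGGCG and also as the variant TTTCGCG, and were found in 28.2% (6.72%). The share with E2F letters was 63% in the G1/S and S phase list and 3.7% in the G2/M list. Genes with and without the letters searched were found in both directions. Of the 16 genes with both CCAAT and CHR, 8 were higher and 8 lower, and of the 19 without both, 8 were higher, 10 lower and 1 not called. A match is a description of letters and was not tested as a site.

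Printed here are the 3 genes whose CCAAT and CHR letters both lie within 120 bases before the start. At most 30 of these 120 bases were allowed to lie inside the annotated gene. They carry like letters and moved in different directions: Zwint (chr10:72654726-72654845, forward strand) had a log2 fold change of -0.20, Cenpw (chr10:30200541-30200660, reverse strand) one of -0.29 and Cenpn (chr8:116921620-116921739, forward strand) one of 0.19. Each is written 5′ to 3′ on the strand of its gene and ends at the base before the start, with CCAAT or its reverse complement and the CHR letters or their reverse complement in capitals. In Cenpw these matches overlap by 1 base.
Zwint: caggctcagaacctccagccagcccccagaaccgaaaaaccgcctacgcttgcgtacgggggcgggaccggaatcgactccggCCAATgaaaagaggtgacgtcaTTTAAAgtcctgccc
Cenpw: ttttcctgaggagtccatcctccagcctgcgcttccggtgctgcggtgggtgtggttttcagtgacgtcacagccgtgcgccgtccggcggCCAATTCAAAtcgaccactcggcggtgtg
Cenpn: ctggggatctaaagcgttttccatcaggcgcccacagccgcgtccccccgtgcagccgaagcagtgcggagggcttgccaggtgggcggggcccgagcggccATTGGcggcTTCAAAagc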

How the data were processed

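The 2 wt and 2 Top2β-null libraries were prepared from total RNA after removal of ribosomal RNA. The authors removed adapters (Trim Galore!), mapped the reads to mm10 (STAR) and counted them over Gencode M9 genes and repeat families (TEtranscripts). The deposited values are raw counts without normalization. Genes were matched to GENCODE M21 (54495 of 54842 identifiers), which gives symbols, GRCm38 positions and exon lengths. The exon length of a gene is that of its annotated exons from all transcripts together, with shared bases counted once.

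The filter required 10 counts in 2 or more libraries, which 25085 genes and 1481 repeat families passed. Counts were fitted with edgeR 4.0.16 in R 4.3.3 (TMM factors over genes and repeats together, quasi-likelihood test, genotype as the only term), with Benjamini-Hochberg adjustment over all 26566 features. Normalized counts were brought to 1 common size, the geometric mean over the libraries of TMM-corrected totals. The alternatives were DESeq2 1.42.0, other scalings and filters, a replicate block, other cut-offs and leaving out each library. The genes and lists were chosen with earlier results of these data known. The fits were tested on simulated data. A first criterion was not met for features of low counts, and the test was then moved, after this was seen, to features at the level of the 39 genes.

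Within each role, the genes with the 2 largest and the smallest absolute log2 fold change are given by library, together with Cenpa, Cenpb, Ndc80, Bub1b and Aurkb. Mis18a, Oip5, Cenpk and Birc5 were added after their values were seen. Of the other lists, genes past the cut-offs of the study and the 2 largest changes in each direction were eligible, besides Foxm1, Mybl2 and Top2a. Pairs of partners, the background of abundant genes and the printed promoters were chosen after the data were seen.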

Additional observations from a re-analysis of the deposited data

How the results depend on the processing

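Of the 39 genes, 33 kept their direction and their side of the threshold with each library left out in turn, where a lone library is assumed to vary like the others. Over the 6 other fits apart from scaling to Hprt, 34 did. The genes that changed in either set were Bub3, Cenpa, Cenpc1, Dsn1, Knl1 and Spc25, all with small shifts. Scaling to the total count gave 0.013 for Cenpa and a median of 0.155 for the 39 genes, and no filter gave a median of 0.102. With each library left out, the median ranged from 0.0558 (without wt replicate 2) to 0.15 (without Top2β-null replicate 1), and the cause was not tested.

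Hprt itself was lower in Top2β-null MEF cells (log2 fold change -0.369), so that scaling to it raised every value by 0.369 and the median of all genes to 0.363. The median of the 39 genes became 0.454. Values turned positive for Cenpa (0.31), Cenpi (0.14), Cenpo (0.16), Cenpw (0.076), Dsn1 (0.26), Pmf1 (0.013), Zwint (0.17), Bub1 (0.11), Bub3 (0.29) and Cdca8 (0.18). By adjusted p alone 29 genes were higher and 4 lower, and of the calls among all genes tested 76.4% were increases. By the 1.5-fold cut-off 12 were higher and 0 lower, and by the cut-offs of the study 2 were higher (Aurkb, 1.18, and Mad1l1, 1.06). With the 1.5-fold cut-off under the main scaling, 3 were higher and 3 lower. With medians in place of sums, the ratio of the 39 genes to the G2/M genes differed by 0.0803 and that to the G1/S and S phase genes by 0.0163.

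With the replicate number as a replicate block, 20 of the 39 genes were higher and 17 lower, with a median of 0.0852 and a log2 fold change of -2.26 for Top2b. Cenpa was the call lost, with an adjusted p of 0.078. The deviations of libraries that share a number correlated at 0.0197 across 17952 features, so the numbers were not taken as pairs. Depth did not limit these genes, whose lowest mean was 968.3 normalized counts.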
